A study of Rattus norvegicus with 59 samples.

Results

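Cholesterol synthesis genes were followed in kidney tissue from the Fawn-Hooded Hypertensive (FHH) rat, an inbred strain with hypertension and progressive kidney damage. The 8 genes are Acat2, Hmgcs1, Idi1, Fdps, Sqle, Cyp51, Msmo1 and Insig1, and they were taken by symbol from the annotation of the Illumina RatRef-12 expression array. Of the 8 genes 6 had a probe, 1 each, among 22523 probes and 13337 genes on the array, while Hmgcs1 and Insig1 were not analysed here. The measured genes all act in synthesis, so no gene of cholesterol uptake is among them. The 59 rats, 1 array each, formed 12 groups by age, sex and treatment. Every rat was FHH. The treated groups came from dams given pyrrolidine dithiocarbamate (PDTC, an inhibitor of the transcription factor NF-kB) in their drinking water, 150 mg per L. Dosing began 2 weeks before birth and ended 4 weeks after it. At 2 days there were 5 untreated and 4 PDTC pups of each sex. At 2 weeks there were 6 untreated and 4 PDTC males, and 5 untreated and 6 PDTC females. The 4 adult groups held 5 rats each, with males 36 and females 42 weeks old, so adult sex and age in weeks cannot be told apart. Exposure of the adult PDTC rats had thus ended long before sampling. Which pups shared a dam is not stated in the labels, and p-values reflect only how these individual rats varied. RNA came from whole kidneys, in which fewer cells of a type and less RNA per cell cannot be told apart.

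Cholesterol is built from acetyl-CoA in the cytosol and endoplasmic reticulum. Acat2 here is the cytosolic acetoacetyl-CoA thiolase of the first step, and Hmgcs1 makes HMG-CoA, the substrate of the statin target HMG-CoA reductase. Idi1 isomerises isopentenyl diphosphate, and Fdps joins isoprene units to farnesyl diphosphate, which also feeds protein prenylation, dolichol and ubiquinone. Sqle oxidises squalene on the way to the first sterol and is a controlled step of the pathway. Cyp51 and Msmo1 then remove methyl groups from lanosterol and its products. When cell sterol is low, SCAP carries the precursor of SREBP2 to the Golgi, where the site proteases Mbtps1 and Mbtps2 release the active factor. When sterol is high, Insig1 and Insig2 hold SCAP in the endoplasmic reticulum. SREBP2 binds sterol regulatory elements together with NF-Y, which recognises CCAAT, and Sp1, which recognises GC boxes. The kidney makes part of its own cholesterol, and growing tissue needs it for new membranes.

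The 250 bases upstream of the RefSeq start, assembly GRCr8, were found for 7 of the 8 genes, all but Sqle. The 4 below are shown because their genes were above background on every array and fell from 2 days to 2 weeks in untreated rats. CCAAT on either strand is in capitals (ATTGG is its reverse complement), and each sequence is written 5′ to 3′ on the gene's strand.
Idi1, chr17:66547525-66547774, minus strand: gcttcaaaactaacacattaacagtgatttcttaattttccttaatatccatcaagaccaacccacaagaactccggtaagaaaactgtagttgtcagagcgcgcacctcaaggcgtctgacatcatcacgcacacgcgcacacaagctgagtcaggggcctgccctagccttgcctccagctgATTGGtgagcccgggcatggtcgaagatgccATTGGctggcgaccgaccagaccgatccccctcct
Fdps, chr2:176804817-176805066, minus strand: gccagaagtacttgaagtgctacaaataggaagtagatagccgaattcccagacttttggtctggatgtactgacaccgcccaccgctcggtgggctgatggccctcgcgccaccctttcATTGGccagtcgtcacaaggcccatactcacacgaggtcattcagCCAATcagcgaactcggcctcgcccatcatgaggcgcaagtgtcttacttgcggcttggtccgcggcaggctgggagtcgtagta
Msmo1, chr16:29746863-29747112, plus strand: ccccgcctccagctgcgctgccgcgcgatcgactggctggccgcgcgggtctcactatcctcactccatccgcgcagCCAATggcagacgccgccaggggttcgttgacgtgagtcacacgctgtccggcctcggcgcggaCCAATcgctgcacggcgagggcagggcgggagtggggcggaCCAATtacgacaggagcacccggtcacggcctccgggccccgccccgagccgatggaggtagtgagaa
Acat2, chr1:50100590-50100839, plus strand: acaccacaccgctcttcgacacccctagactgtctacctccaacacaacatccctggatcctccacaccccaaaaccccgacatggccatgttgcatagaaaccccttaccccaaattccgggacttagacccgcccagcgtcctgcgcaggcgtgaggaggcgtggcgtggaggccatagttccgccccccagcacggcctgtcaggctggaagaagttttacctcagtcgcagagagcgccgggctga
CCAAT was found 3 times in the Msmo1 window, 2 times each in those of Idi1, Fdps and Hmgcs1, 1 time in that of Insig1, and 0 times in those of Acat2 and Cyp51. Thus 5 of 7 windows held it, against 34% of 33469 rat promoters of the same length. At least 2 copies stood in 9.42% and at least 3 in 2.52% of all promoters. The GC box GGGCGG, also searched on both strands, was in 6 of 7 windows (all but Idi1) and in 30.5% of all promoters, and no copy overlapped a CCAAT. For the sterol regulatory element 1 motif was searched on both strands, in its full form, with 1 base free, and in the shorter form TCACNCCAC. That motif was in 0 of 7 windows, against 0.105%, 0.23% and 0.974% of all promoters. Other forms of the element were not searched, so the 0 does not show that the windows lack it. These matches describe the letters in the windows and locate no bound site.

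Levels are log2 intensities after background correction and quantile normalization over the 59 arrays, and each gene is compared only with itself. Acat2, Idi1, Fdps, Sqle and Msmo1 were above background on 59 of 59 arrays, with signals between 1.34 and 51.1 times the background level of their array. Cyp51 was above background on 18 of 59 arrays, on 0 of 10 untreated and 1 of 10 PDTC adults, and its signal reached at most 1.76 times background. Its values are therefore weak, and it was not tested between adult groups. Before normalization the median signal of an array was 67.8 to 202.7, and 9139 to 12488 probes were above background. Adult arrays were dimmer, with median signals of 67.8 to 95.4 against 87.1 to 203 in pups. The arrays lay on 10 slides, pups on slides 1 to 6 and adults on slides 7 to 10. The 1 exception, untreated 2-week male 6, lay on slide 8 and stood apart in 3 of the 6 genes, so results that rest on it are given without it. The 9 kidney markers on the array, among them Umod, Aqp2 and Slc34a1, were above background on 59 of 59 arrays.

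In untreated kidneys Acat2, Idi1, Sqle and Msmo1 fell from 2 days to 2 weeks and again to adulthood, whereas Fdps passed the test in the first interval and not in the second. This comparison asks how the genes moved over normal growth of the FHH kidney. From 2 days to adulthood Sqle was 2.99-fold lower (95% confidence interval 2.41 to 3.72), Acat2 2.55-fold (2.16 to 3), Msmo1 2.12-fold (1.78 to 2.52) and Idi1 2.01-fold (1.76 to 2.31). With arrays scaled to 1 median the same log2 changes were larger, -2.38 for Sqle, -2.17 for Acat2, -1.95 for Msmo1 and -1.87 for Idi1 against -1.58, -1.35, -1.08 and -1.01, and relative to the all-probe median of that scaling they were -1.85, -1.64, -1.42 and -1.34. A gene is said to have risen or fallen where the adjusted p of limma, over all probes tested, was under 0.05.

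**Figure D1:**
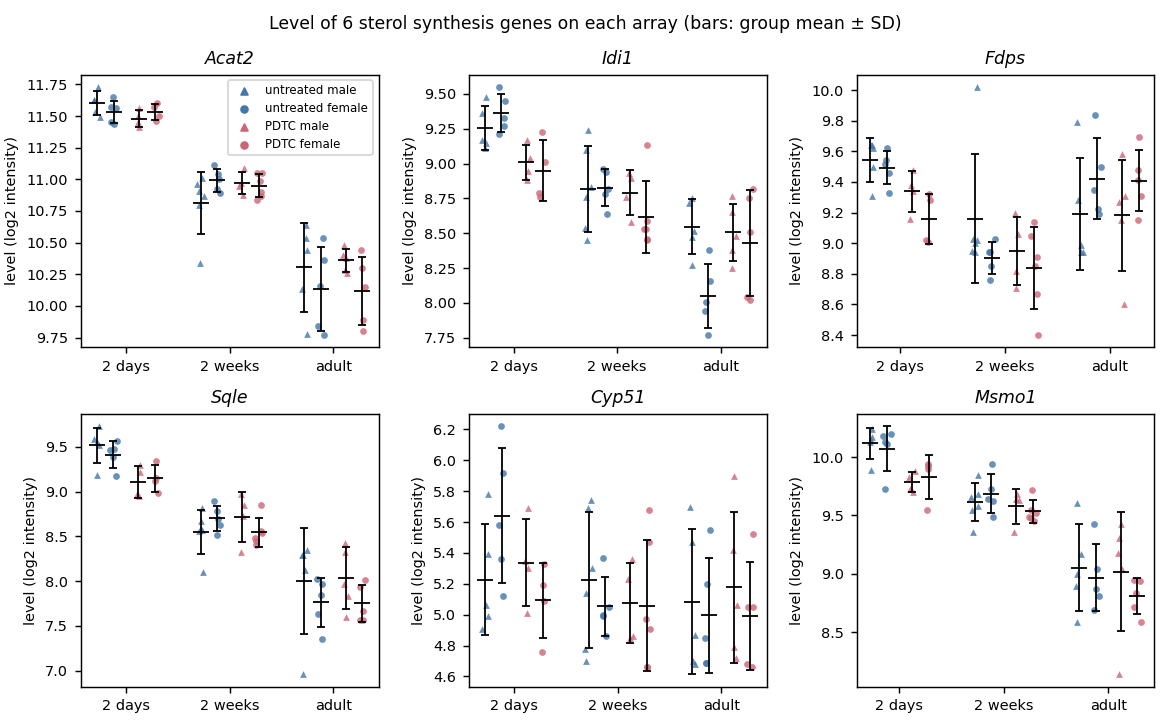
Log2 level of each measured gene (vertical axis) on each of 59 arrays, by age (horizontal axis), treatment (colour) and sex (triangles, males; circles, females), with black bars for the group mean ± SD over 4 to 6 rats. Sqle steps down from a median of 9.50 in untreated 2-day pups to 8.63 at 2 weeks and 7.99 in adults, whereas Fdps stands at 9.53, 8.95 and 9.25.

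Sqle, squalene epoxidase, ranged from 9.17 to 9.73 with a median of 9.50 in 10 untreated 2-day pups. It ranged from 8.10 to 8.89 (median 8.63) in 11 untreated 2-week rats and from 6.96 to 8.35 (median 7.99) in 10 untreated adults. All 11 rats at 2 weeks were below all 2-day pups, and adults met the 2-week range only at the 8.10 of male 6. The change was -0.84 ± 0.0862 (SE; adjusted p = 9.9e-08) to 2 weeks and -0.74 ± 0.149 (adjusted p = 2.0e-04) from there to adulthood. Acat2, the thiolase, ranged from 11.44 to 11.73 (median 11.57) at 2 days, from 10.34 to 11.11 (median 10.92) at 2 weeks and from 9.77 to 10.64 (median 10.26) in adults. Again the first 2 ages did not overlap, and the lowest 2-week value, 10.34, was male 6. Acat2 fell by 0.67 ± 0.0738 (adjusted p = 2.9e-07) and then by 0.68 ± 0.123 (adjusted p = 6.1e-05).

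Msmo1, the methylsterol oxidase, ranged from 9.73 to 10.24 (median 10.14) at 2 days, from 9.36 to 9.94 (median 9.64) at 2 weeks and from 8.59 to 9.61 (median 8.95) in adults. The ranges of neighbouring ages overlapped, but those of 2-day pups and adults did not. It changed by -0.45 ± 0.0785 (adjusted p = 1.0e-04) and then by -0.64 ± 0.12 (adjusted p = 9.1e-05). The first of these lost its call with arrays scaled to 1 median in place of quantile normalization (-0.38, adjusted p = 0.111). Idi1, the isomerase, ranged from 9.11 to 9.55 (median 9.30), from 8.45 to 9.24 (median 8.82) and from 7.77 to 8.75 (median 8.32) at the 3 ages in turn. Its adult range, too, lay wholly below that of 2-day pups. Idi1 fell by 0.48 ± 0.0919 (adjusted p = 2.4e-04) to 2 weeks and by 0.53 ± 0.111 (adjusted p = 3.1e-04) to adulthood.

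Fdps, farnesyl diphosphate synthase, followed another course. It ranged from 9.31 to 9.64 (median 9.53) at 2 days, from 8.76 to 10.02 (median 8.95) at 2 weeks and from 8.94 to 9.84 (median 9.25) in adults. The 10.02 belonged to male 6, whose 5 fellow untreated males lay between 8.94 and 9.03. The other 10 rats of 2 weeks lay below all 2-day pups, and Fdps fell by 0.49 ± 0.108 (adjusted p = 0.00105). From 2 weeks to adulthood it differed by 0.27 ± 0.14 (adjusted p = 0.0928), or by 0.36 without male 6 (adjusted p = 0.00738), but by -0.63 (adjusted p = 6.9e-04) with arrays scaled to 1 median. Under that scaling the all-probe median itself was -0.57, and Fdps stood at -0.06 relative to it. Relative to the same shift Sqle stood at -1.04, Msmo1 at -0.99, Acat2 at -0.97 and Idi1 at -0.87.

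Counted over the genes, 5 of 6 fell and 0 rose from 2 days to 2 weeks, where 37.8% of 13378 probes tested were called in either direction and 20.9% were called lower. The exception was Cyp51, the lanosterol demethylase, at -0.29 ± 0.154 (adjusted p = 0.15). From 2 weeks to adulthood 4 of 6 fell, where 64% of 13114 probes were called and 32.3% called lower. From 2 days to adulthood 4 of 6 fell, where 71.4% of 13079 probes were called and 36.3% called lower. The median change of the 6 genes was -0.49, -0.58 and -1.05 in the 3 comparisons, against -0.011, 0.0027 and -0.0041 over all probes. Quantile normalization gives all arrays the same distribution, so the all-probe median could hardly move. Of all probes 9.07%, 21.9% and 13.2% lay below the median of the genes in the 3 comparisons in turn. Fdps and Cyp51 did not pass from 2 days to adulthood, with Fdps at -0.21 ± 0.113 (adjusted p = 0.0972) and Cyp51 at -0.39 (adjusted p = 0.0507) and below background on all 10 adult arrays. Both missed calls turn with the processing: Fdps stood at -1.06 (adjusted p = 8.5e-07) with arrays scaled to 1 median, or -0.53 relative to the all-probe median, and passed in 4 of 30 alternatives, and Cyp51 passed in 13 of 29. With slide as a term the 5 calls of the first interval held. For adults slide and age cannot be told apart except through male 6, and a fit with slide as a term, which rests on that 1 array, called 0 of 6 between 2 weeks and adulthood.

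PDTC-exposed rats were compared over the same ages. From 2 days to 2 weeks 5 of 6 genes fell in them (38.4% of 13368 probes called, 20.4% lower), with Acat2 at -0.55 ± 0.0525, Sqle at -0.50 ± 0.0909, Fdps at -0.36 ± 0.1, Idi1 at -0.27 ± 0.0965 and Msmo1 at -0.25 ± 0.0684. From 2 weeks to adulthood 3 of 6 fell and 1 rose (67.7% of 13236 probes called, 35% lower and 32.7% higher). Those that fell were Sqle at -0.74 ± 0.114, Acat2 at -0.73 ± 0.0828 and Msmo1 at -0.64 ± 0.125, and Fdps rose by 0.40 ± 0.123 (adjusted p = 0.00684). Idi1 lay at -0.24 ± 0.121 (adjusted p = 0.0878). Fdps ranged from 8.40 to 9.20 (median 8.88) in 10 PDTC rats at 2 weeks and from 8.60 to 9.69 (median 9.31) in 10 PDTC adults, 7 of which were above all of the younger rats. No slide held both PDTC pups and PDTC adults, so age and slide cannot be told apart in their changes to adulthood. In untreated rats the Fdps change from 2 weeks to adulthood went from 0.27 to -0.63 with arrays scaled to 1 median. That scaling is not given for PDTC rats. From 2 days to adulthood 4 of 6 fell (69.9% of 13150 probes called, 35.9% lower), with Idi1 at -0.51 ± 0.126 beside -1.01 ± 0.0939 in untreated rats.

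The order of the 12 group means put an untreated 2-day group first for each of the 6 genes. An adult group was lowest for Acat2, Idi1, Sqle, Cyp51 and Msmo1, and the PDTC females of 2 weeks were lowest for Fdps. Cyp51 was above background on 0 of 10 untreated and 1 of 10 PDTC adults, so its lowest place is not measured. How many of all probes share this order was not counted, and 36.3% of them were called lower in untreated adults than at 2 days. Neighbours in that order overlapped in 11 of 11 pairs for each gene but Acat2, where they did in 10 of 11. The joint level of an array was the mean over the 6 genes of log2 level minus the gene's mean over all arrays. It was 0.55 ± 0.055 (SD, n = 10) in untreated 2-day pups, 0.015 ± 0.1 (n = 11) in untreated 2-week rats and -0.39 ± 0.16 (n = 10) in untreated adults. No untreated 2-week array (-0.14 to 0.18) reached the untreated 2-day range (0.47 to 0.62), and 9 of 10 untreated adults (-0.71 to -0.13) were below all of the 2-week arrays. In PDTC rats the joint level was 0.30 ± 0.13 (n = 8), -0.054 ± 0.16 (n = 10) and -0.37 ± 0.18 (n = 10).

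**Figure D2:**
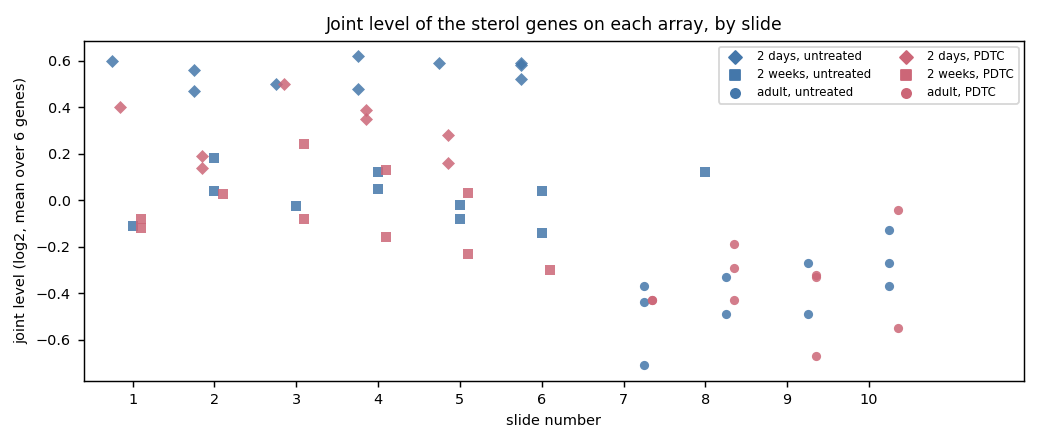
Joint level of the 6 genes (vertical axis, log2) on each of 59 arrays by slide number (horizontal axis), with colour for treatment and shape for age. On slides 1 to 5, which hold both treatments at 2 days, PDTC pups (0.14 to 0.50) lie below most untreated pups (0.47 to 0.62), and adults occupy slides 7 to 10.

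Other genes of the pathway, from lists of symbols, went both ways over growth. Of 13 further synthesis genes tested between 2 days and adulthood, 4 rose and 5 fell, with a median of -0.14. In this comparison 35.1% of all probes were called higher and 36.3% lower after quantile normalization. These shares are to be set beside the count of each list here and below, but not beside counts with arrays scaled to 1 median. Ebp, the sterol isomerase, rose by 1.35 ± 0.0903, Acss2, which makes acetyl-CoA from acetate, by 2.68 ± 0.189 and Sc5d, a sterol desaturase, by 0.77 ± 0.0961. Mvd, the mevalonate diphosphate decarboxylase that feeds Idi1, fell by 0.60 ± 0.104. With arrays scaled to 1 median 2 rose and 10 fell, Ebp (0.63) and Acss2 (1.91) still among the risen and Sc5d at -0.11 (adjusted p = 0.576). The split between directions thus hung on the scaling, under which the all-probe median was -0.53. The share of all probes called in each direction with that scaling is not given. Falls counted with scaled arrays, here and below, therefore cannot be read as particular to these lists.

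Of 6 regulators, 1 rose and 4 fell. Insig2, which holds SCAP in place, rose by 1.11 ± 0.104, while Srebf2, the gene of SREBP2, fell from above background on 10 of 10 pups to above it on 1 of 10 adults, so that the size of its change is not measured. Scap fell by 0.62 ± 0.107 and Mbtps2, above background on 5 of 10 adults, by 0.70 ± 0.138. The same scaling gave 1 rise, Insig2, and 5 falls. Among 4 genes of uptake and trafficking 1 rose and 2 fell: the lysosomal sterol carrier Npc2 fell by 0.81 ± 0.116, Stard4, a cytosolic sterol carrier above background on 7 of 10 adults, fell by 1.01 ± 0.164, and Scarb1, a lipoprotein receptor, rose by 0.35 ± 0.131. Scarb1 turned to -0.34 (adjusted p = 0.0492) with that scaling, under which 4 of 4 fell.

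Of 10 genes of efflux, esterification and the LXR receptors, 7 rose and 3 fell. Apoe, the lipoprotein component, rose by 3.11 ± 0.0938, Nr1h3, the gene of LXR alpha, by 1.88 ± 0.127 and Cyp27a1, a sterol hydroxylase, by 1.73 ± 0.145. Abcg5, a sterol exporter subunit, was above background on 10 of 10 pups and 0 of 10 adults, which makes it at least 4.94-fold lower in adults (adjusted p = 2.9e-18), a bound set by the dimmest probes above background. With arrays scaled to 1 median 3 rose, the same Apoe, Nr1h3 and Cyp27a1, and 3 fell. Of 6 SREBP1 targets of fatty acid synthesis 3 rose and 3 fell, led by Fads1 at 1.63 ± 0.0926 and Fads2 at 1.95 ± 0.14, both desaturases. In the other direction, Scd2 went from a mean of 11.6 at 2 days to 10.26 in adults. Of 5 genes of the non-sterol branch, which uses farnesyl diphosphate, Dhdds of dolichol synthesis rose by 0.96 ± 0.143 and Pggt1b, a prenyltransferase subunit, fell by 0.28 ± 0.0987. Fads1 (0.82) and Fads2 (1.08) still rose with arrays scaled to 1 median, and Dhdds did not pass (0.076, adjusted p = 0.701). With that scaling 2 of the SREBP1 targets rose and 3 fell, and of the non-sterol branch 0 rose and 4 fell.

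**Figure D3:**
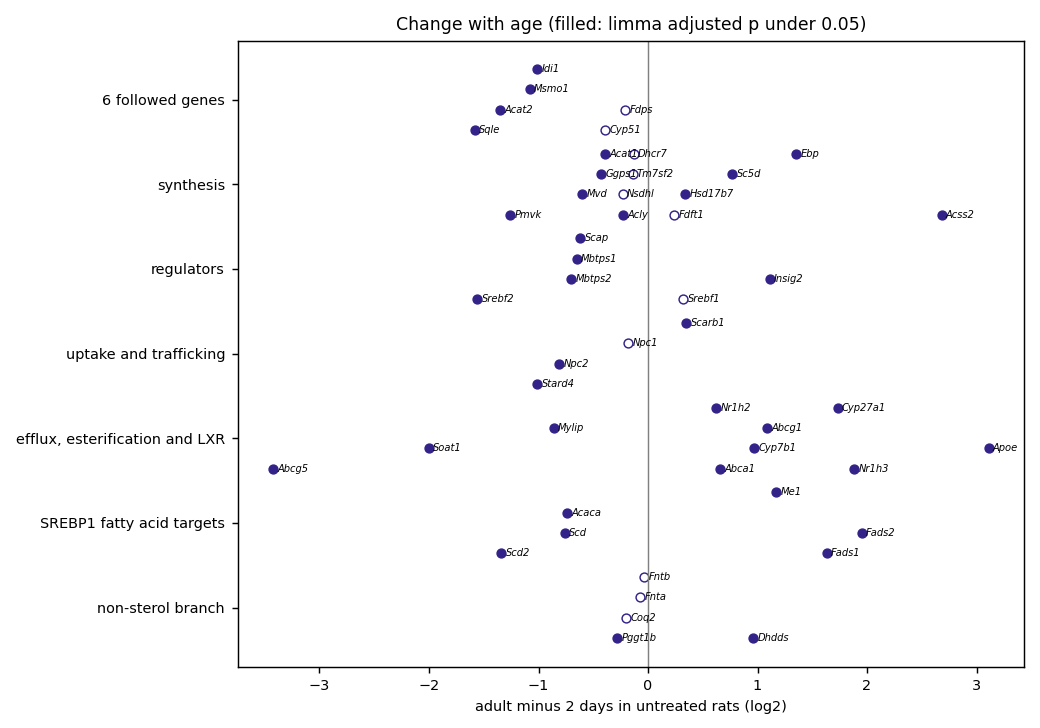
Change from 2 days to adulthood in untreated rats (horizontal axis, log2, adult minus 2 days) for the 6 followed genes and 6 lists of pathway genes (rows), each point 1 gene and filled where the adjusted p was under 0.05. The followed genes lie between -1.58 and -0.21, whereas the lists spread to both sides of 0. Adult values of Abcg5, Acaca and Cyp51 are below background, so their points give fitted values and no measured size.

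Cell type markers moved over the same ages. Of all probes 35.1% were called higher and 36.3% lower from 2 days to adulthood, and 16.9% and 20.9% from 2 days to 2 weeks. All 7 cell cycle genes tested of 10 listed fell, and their summed level was 12100 to 14000 intensity units in untreated 2-day pups, 7180 to 10600 at 2 weeks and 1340 to 3900 in adults. Of 8 proximal tubule markers 7 rose and 1 fell to adulthood, with a summed level of 13400 to 23600 at 2 days and 29700 to 48500 in adults. All 5 leukocyte markers tested of 7 rose, from 292 to 442 at 2 days to 3650 to 9120 in adults. Of the adrenal cortex list, the defining enzymes Cyp11b1 and Cyp11b2 and the receptor Mc2r were above background on 0 of 59 arrays. The other members were above it on 50 (Star), 51 (Hsd3b1), 25 (Hsd3b2), 19 (Cyp11a1) and 18 (Cyp21a1) arrays, and of 5 tested to adulthood 2 rose and 1 fell. Of 4 erythroid markers 3 rose to 2 weeks, while from 2 days to adulthood 1 rose and 3 fell, with sums of 19000 to 29600 at 2 days and 1670 to 5410 in adults. All 6 adipose markers tested rose from 2 days to 2 weeks, with sums of 585 to 3570 and 2420 to 19900. The part of these cell types in the change of the sterol genes was not tested.

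At 2 days all 6 genes were lower in PDTC pups than in untreated pups, and none passed over all probes. Of all probes 54.2% were lower in PDTC pups. This comparison asks what exposure of the dam did in the newborn kidney. In limma's fit of 8 PDTC and 10 untreated pups 0 of 6 genes and 0% of 13163 probes were called, while 2085 probes (15.8%) had an unadjusted p under 0.05. At that unadjusted level stood 4 of the 6 genes, Idi1, Sqle, Fdps and Msmo1. Their median difference over the 6 genes was -0.28, against -0.016 over all probes, and 3.34% of probes lay below -0.28.

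Idi1 stood at 9.36, 9.17, 9.15, 9.48 and 9.11 in the 5 untreated males and at 8.88, 9.17, 9.04 and 8.95 in the 4 PDTC males. In females it stood at 9.27, 9.21, 9.33, 9.55 and 9.45 untreated and at 9.01, 8.79, 9.23 and 8.76 with PDTC. Of the PDTC pups 6 of 8 were below every untreated pup and 8 of 8 below the untreated mean, with a difference of -0.33 ± 0.0796 (adjusted p = 0.125). Sqle stood at 9.52, 9.19, 9.73, 9.55 and 9.59 in untreated males and at 8.97, 9.30, 9.22 and 8.95 in PDTC males. In females it stood at 9.39, 9.17, 9.48, 9.56 and 9.46 untreated and at 9.34, 8.98, 9.15 and 9.12 with PDTC. The lowest untreated pup of each sex lay within the PDTC range, 5 of 8 PDTC pups were below all untreated pups, and the difference was -0.33 ± 0.0821 (adjusted p = 0.125).

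Fdps stood at 9.64, 9.31, 9.50, 9.62 and 9.64 in untreated males and at 9.16, 9.48, 9.38 and 9.34 in PDTC males. Its female values were 9.46, 9.33, 9.52, 9.62 and 9.54 untreated and 9.28, 9.02, 9.32 and 9.01 with PDTC. The females did not overlap, the males did, and the difference over both was -0.27 ± 0.0707 (adjusted p = 0.128). Msmo1 stood at 10.13, 9.89, 10.17, 10.15 and 10.24 in untreated males and at 9.70, 9.88, 9.73 and 9.83 in PDTC males. Its female values were 10.11, 9.73, 10.13, 10.20 and 10.18 untreated and 9.90, 9.55, 9.94 and 9.92 with PDTC. Here the males did not overlap, untreated female 2 at 9.73 lay among the PDTC females, and the difference was -0.29 ± 0.078 (adjusted p = 0.138).

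Acat2 and Cyp51 differed by less. Acat2 ranged from 11.41 to 11.60 (median 11.50) in PDTC pups and from 11.44 to 11.73 (median 11.57) in untreated pups, a difference of -0.061 ± 0.0522 (adjusted p = 0.60), or 0.073 with arrays scaled to 1 median. Cyp51 was above background in 4 of 8 PDTC and 5 of 10 untreated pups, ranged from 4.76 to 5.69 and from 4.91 to 6.22, and differed by -0.22 ± 0.154 (adjusted p = 0.521). By sex, Cyp51 lay at 0.11 ± 0.218 in males and at -0.55 ± 0.218 in females. Idi1 lay at -0.25 ± 0.113 in males and -0.41 ± 0.113 in females, and Sqle at -0.40 ± 0.116 and -0.26 ± 0.116. In neither sex was a gene or another of the 13163 probes called (0% in both, against 11.2% in males and 7.35% in females at an unadjusted p under 0.05), nor was a difference between the sexes (0%, 2.35% unadjusted).

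**Figure D4:**
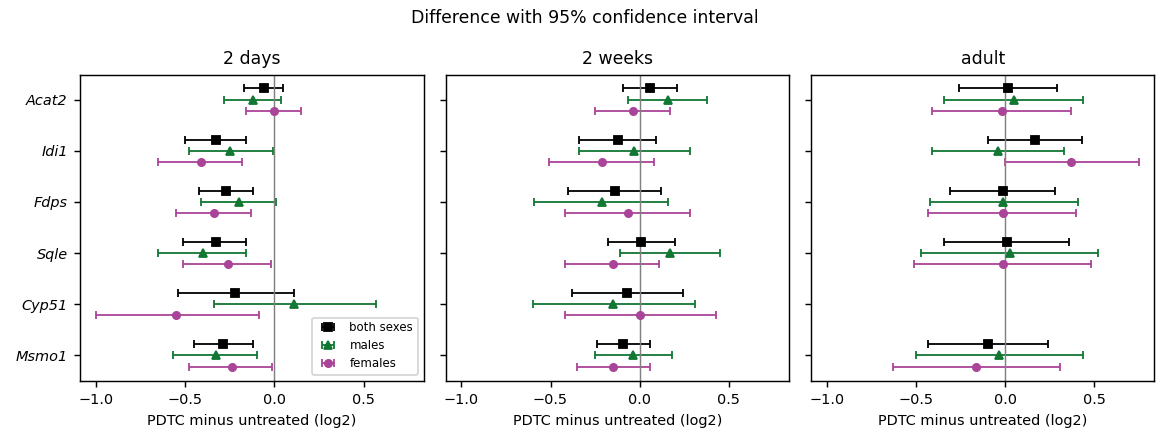
Difference between PDTC and untreated rats (horizontal axis, log2) for each gene (rows) at each age (panels), with 95% confidence intervals for both sexes together (squares), males (triangles) and females (circles). At 2 days Idi1, Sqle, Fdps and Msmo1 lie between -0.33 and -0.27 for both sexes together, with intervals below 0, whereas the intervals for both sexes together cross 0 at 2 weeks and in adults. Cyp51 was not tested in adults.

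The joint level differed by -0.25 between PDTC and untreated 2-day pups, and 7 of 8 PDTC pups (0.14 to 0.50) were below all untreated pups (0.47 to 0.62). Without Cyp51 it was 0.18 to 0.50 in PDTC pups and 0.39 to 0.72 in untreated pups, with 5 of 8 below all. On the 5 slides that held both treatments at this age the joint level was lower in PDTC pups on 5, by differences of -0.37 to -0.0018, and the smallest was slide 3 with 1 pup of each kind. The direction on slide 3 rests on Cyp51: without it the PDTC male there stood at 0.50 and the untreated female at 0.39. Slide 1 also set pups of opposite sex against each other, a PDTC female and an untreated male. Within slides Idi1 was lower on 5 of 5, and Fdps, Sqle and Msmo1 on 4 of 5. With slide as a fixed term the differences were -0.31 for Idi1, -0.29 for Sqle, -0.25 for Msmo1 and -0.23 for Fdps, each with an adjusted p of 0.293.

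Normalization bears on the size. Before it, PDTC pups had the brighter arrays, with a median signal of 127 against 115, and the median raw signal of Idi1 was 816 in them against 771 in untreated pups. With each array scaled to 1 median the joint difference was -0.10, where the median of all probes was 0.12. The differences with that scaling were -0.12 for Sqle, -0.12 for Idi1, -0.092 for Msmo1 and -0.054 for Fdps. None passed (limma adjusted p from 0.576 for Sqle to 0.815 for Fdps). Relative to the all-probe median Sqle stood at -0.25, Idi1 at -0.24, Msmo1 at -0.22 and Fdps at -0.18. With array weights, which give less weight to arrays that scatter more, Idi1, Sqle, Fdps and Msmo1 passed (adjusted p = 0.038, 0.0489, 0.0484 and 0.039), beside 373 of all probes.

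Of 13 further synthesis genes 8 were lower and 5 higher in PDTC pups, beside 54.2% of all probes lower, 0 passed, and the median was -0.079. Sc5d lay at 0.27 ± 0.0931, Dhcr7, the last reductase, at -0.19 ± 0.0787, Nsdhl at -0.19 ± 0.0808 and Acat1, the mitochondrial thiolase, at 0.21 ± 0.0986. In the remaining lists 0 passed too, with medians of -0.041 for regulators, -0.02 for uptake, -0.03 for efflux, -0.03 for SREBP1 targets and -0.088 for the non-sterol branch. Nr1h3 stood lowest at -0.58 ± 0.184 (adjusted p = 0.159), followed by Dhdds at -0.49 ± 0.148 (adjusted p = 0.145). Srebf2 lay at -0.20 ± 0.125 (adjusted p = 0.444).

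No cell type marker passed between these pups, of which the PDTC pups were lower in 54.2% of all probes. All 8 proximal tubule markers tested of 10 were lower in PDTC pups, with summed levels of 11800 to 23100 against 13400 to 23600 in untreated pups. All 6 adipose markers tested of 9 were higher, with sums of 612 to 4510 against 585 to 3570, and leptin was above background in neither group. Their part in the difference of the sterol genes was not tested.

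At 2 weeks, still under exposure, the genes of PDTC and untreated rats lay closer together. Fdps differed by -0.14 ± 0.124, or -0.053 without male 6, Idi1 by -0.12 ± 0.103, Msmo1 by -0.092 ± 0.072, Cyp51 by -0.073 ± 0.15, Sqle by 0.0083 ± 0.0925 and Acat2 by 0.059 ± 0.074. None of the 6 passed, nor did any of 13360 probes (0%), of which 697 (5.22%) had an unadjusted p under 0.05. Neither sex alone gave a call, and 3.23% of probes in males and 3.16% in females had such a p, with 0 of the 6 genes among them. Idi1 ranged from 8.45 to 9.13 (median 8.59) in 10 PDTC rats and from 8.45 to 9.24 (median 8.82) in 11 untreated rats, an overlap of nearly the whole range. The intervals reach from -0.18 to 0.20 for Sqle and from -0.34 to 0.092 for Idi1, so a difference as large as that of 2-day pups is outside the interval for Sqle and within it for Idi1.

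In adults, months after exposure ended, 0 of 5 genes tested and 0% of 11701 probes passed, while 668 (5.71%) had an unadjusted p under 0.05, with 0 of the 5 genes among them. Idi1 differed by 0.17 ± 0.127 (95% confidence interval -0.097 to 0.43), Msmo1 by -0.095 ± 0.159, Acat2 by 0.016 ± 0.132, Fdps by -0.011 ± 0.141 and Sqle by 0.0087 ± 0.168. In adult females Idi1 stood at 7.77, 7.94, 8.38, 8.01 and 8.16 untreated and at 8.75, 8.02, 8.04, 8.51 and 8.82 with PDTC. Of the PDTC females 3 were above all untreated females and 2 within their range, for a difference of 0.37 ± 0.18 (adjusted p = 0.798). Adult males overlapped at 8.27 to 8.75 untreated and 8.25 to 8.77 with PDTC.

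The effects were also set against each other. The difference at 2 weeks minus that at 2 days was above 0 for 6 of 6 genes, with Sqle at 0.34 (95% confidence interval 0.088 to 0.60), Idi1 at 0.21 (-0.063 to 0.48) and Msmo1 at 0.20 (-0.013 to 0.41). Of all probes 45.7% were below 0 there. The difference in adults minus that at 2 days was above 0 for 6 of 6 as well, with Idi1 at 0.50 (0.19 to 0.81), where 49% of all probes were below 0. The 6 include Cyp51, which was above background on 0 of 10 untreated and 1 of 10 PDTC adults. In both tests 0 genes and 0% of probes passed (adjusted p = 1 for Sqle and 0.999 for Idi1; 3.36% and 4.4% of probes at an unadjusted p under 0.05), and both use the same 2-day pups.

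Untreated females and males differed in none of the genes by the test. At 2 days and 2 weeks limma called 0% of probes (1.7% and 2.75% at an unadjusted p under 0.05), and in adults 157 of 11701, or 1.34%, but 0 of 5 genes. Idi1 came closest among adults. It stood at 8.75, 8.72, 8.47, 8.27 and 8.52 in males, and with the female values given above 4 of 5 females were below all males. The difference was -0.49 ± 0.18 (females minus males, adjusted p = 0.251).

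Within groups some of the genes varied together from rat to rat. For each of 15 pairs the deviations from group means were correlated over 59 arrays, with permutation within groups (100000 resamples, two-sided) and adjustment over the pairs. Idi1 and Fdps gave r = 0.427 (adjusted permutation p = 0.0361) and rho = 0.472 (0.00855). Without the 2 arrays farthest from the median this r was 0.304, with slide removed 0.365, and without male 6 0.334. Idi1 and Cyp51 also passed (r = 0.454, adjusted permutation p = 0.0279), but Cyp51 was above background on 18 of 59 arrays, and the r was -0.00309 at 2 days, 0.795 at 2 weeks and 0.389 in adults, so little can be read from this pair. By rank, Sqle and Msmo1 (rho = 0.45, adjusted permutation p = 0.00855; r = 0.397, 0.159), Idi1 and Sqle (rho = 0.427, 0.00892; r = 0.332, 0.0826) and Acat2 and Msmo1 (rho = 0.387, 0.0285; r = 0.177, 0.571) also passed. The remaining 10 pairs passed by neither measure.

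Within each age the values were as follows. Among the 5 genes above background on every array, 10 of 10 pairs had r above 0 at 2 days, from 0.344 for Acat2 and Sqle to 0.787 for Idi1 and Fdps, with a median of 0.573 over 18 arrays. At 2 weeks the median was 0.0758 (-0.586 to 0.688, 21 arrays), a value that rests on male 6. Without it 10 of 10 pairs were above 0, with a median of 0.438 (0.129 to 0.645, 20 arrays), and the pair of Acat2 and Fdps went from -0.586 to 0.197. In adults the median was -0.0137 (-0.511 to 0.467, 20 arrays). Cyp51, above background on 18 of 59 arrays, had r below 0 with each of the other 5 genes at 2 days, from -0.529 to -0.00309. Values for pairs of genes outside the 6 are not given. The r values describe the arrays, which share slides and processing, and the difference between ages was not tested.

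**Figure D5:**
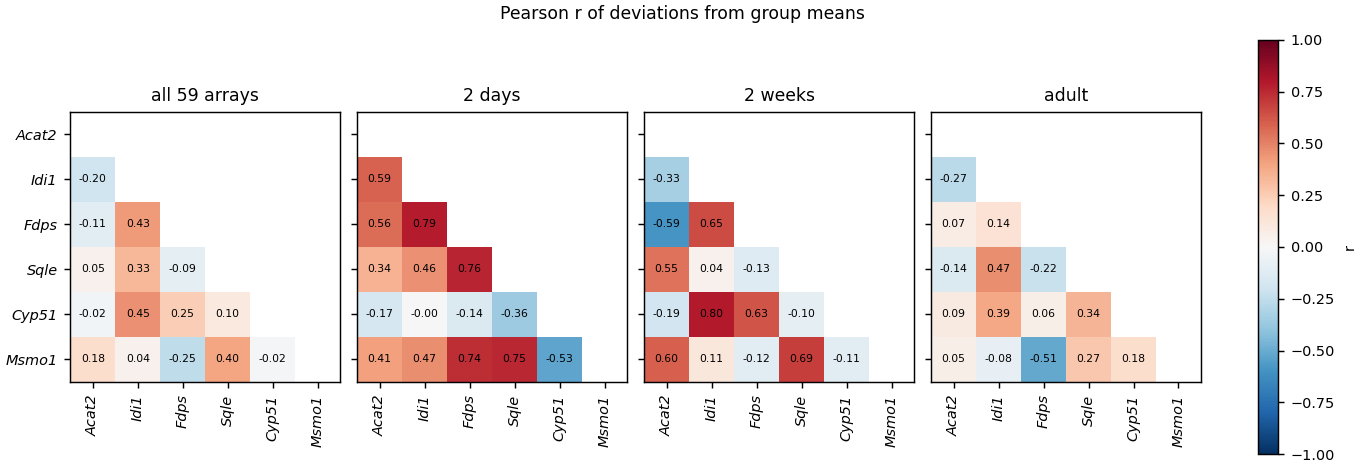
Pearson r between pairs of genes (rows and columns), over deviations from group means, for all 59 arrays and for each age alone (panels), with red above 0 and blue below. At 2 days the pairs of Idi1, Fdps, Sqle and Msmo1 reach 0.455 to 0.787, whereas in adults Fdps and Msmo1 stand at -0.511. The values at 2 weeks include male 6, without which Acat2 and Fdps stand at 0.197 there.

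Genes outside the list were ranked by the r of their deviations with the joint level over 59 arrays, among 8186 genes above background on most of the arrays. That joint level includes Cyp51, above background on 18 of 59 arrays, and no ranking was made without it. Highest was Id2, an inhibitor of helix-loop-helix factors, at 0.666, followed by Kif23 at 0.611, Ttpa at 0.582, Cenpk at 0.582 and Casp8 at 0.581. Gulp1, Mrpl17, RT1-N3, Tcp1 and Ada completed the first 10, down to 0.558. Lowest were Bmp4, Entpd5, Osgin1, Nit1 and Gimap8, down to -0.599. By age, Id2 stood at 0.196 at 2 days and 0.864 in adults, Kif23 at -0.188 and 0.856, Casp8 at -0.47 and 0.86, and RT1-N3 at -0.155 and 0.734, and the difference between ages was not tested for these genes. Of 43 other pathway genes 0 were among the 100 highest. Those 100 are a small part of the 8186 genes, so this count cannot tell whether the pathway varied with the joint level. The 43 had r on both sides of 0, highest for Stard4, Fads1 and Acly and lowest for Abcg1, Acss2 and Dhcr7. Of the first 10, 5 were still there with slide removed and 9 without male 6.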

How the data were processed

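Whole-kidney RNA of 59 rats was measured on 59 one-colour Illumina RatRef-12 arrays. The authors deposited an intensity and a detection p-value per probe and array, per the file headers, and the array medians of these intensities differ, as in values that are not normalized. Whether background was subtracted at the scanner is not stated. The authors also deposited a table of log2 values, normalized between arrays by an unstated method and used here as an alternative. Probes were named from the platform annotation, which gave 1 symbol to 13793 probes and none to 8730. The background level and SD of an array came from the 50 probes with the highest deposited detection p-value, and correction was by normexp with an offset of 16, then quantile normalization and log2, in R 4.3.3. A probe was above background at a one-sided p under 0.05 and tested when above it on at least 4 arrays of its fit. Fits used limma 3.58.1 (lmFit, eBayes) within an age, or within the groups of the ages compared, with Benjamini-Hochberg adjustment over all probes at 0.05. Errors after ± are SE for differences and SD for levels. For genes of the other lists up to 4 of smallest p are named. The 8 genes, the lists and the tests were chosen with earlier results of these data known. In simulated data the 2-day fit over 13163 probes recovered 66% of probes changed by 0.5 and 99% of those changed by 1 (log2), and the fit of adults against 2 days over 13079 probes 43% and 87%. Noise was drawn independently for each probe, with no shared slide effect. Changes as small as the 2-day differences of Idi1, Sqle, Fdps and Msmo1 (-0.33 to -0.27) were not simulated. No 2 arrays held identical values. Alternatives were arrays scaled to 1 median, no normexp correction, the deposited log2 values, slide as a term, array weights, 1 fit of all arrays and each array left out. The number of arrays limits the precision.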

Additional observations from a re-analysis of the deposited data

Results flagged for a closer look

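In 9 of 84 checks of a gene or the joint level in a group of rats, 1 rat stood apart from its group by Dixon's criterion, which chance alone meets in about 1 of 20 groups. Untreated 2-week male 6, the only pup on an adult slide, accounted for 3: Acat2 at 10.34 against 10.80 to 11.01 in the other males, Fdps at 10.02 against 8.94 to 9.03, and Sqle at 8.10 against 8.56 to 8.82. PDTC female 3 of 2 weeks stood high in Idi1 (9.13 against 8.45 to 8.59) and in Sqle (8.85 against 8.40 to 8.56). For Msmo1, untreated 2-day female 2 was low (9.73 against 10.11 to 10.20), as were PDTC 2-day female 2 (9.55 against 9.90 to 9.94) and PDTC 2-week male 2 (9.36 against 9.63 to 9.68). In Sqle, adult untreated male 4 was at 6.96 against 8.13 to 8.35.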

How the results depend on the processing

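Leaving aside single arrays, 430 values of single genes kept direction and side of the threshold, 16 newly passed, 6 no longer passed and 21 turned sign. Scaling to 1 median moved the joint PDTC difference to -0.10 at 2 days (males -0.06, females -0.15) and 0.088 at 2 weeks (males 0.22, sex difference -0.27, untreated females minus males 0.14), and the age change to -1.11 from 2 weeks and -1.61 from 2 days to adulthood. It turned Acat2 at 2 days (0.073, females 0.15), Idi1 (0.075), Fdps (0.055) and Msmo1 (0.089) at 2 weeks, Fdps in adults (0.084), and from 2 weeks to adulthood Fdps (-0.63) and Cyp51 (0.13). Slide as a fixed term gave 0 genes called and a joint change of -0.55 from 2 weeks to adulthood, Fdps at -0.42, Cyp51 in 2-day males at -0.047 and Sqle at 2 weeks at -0.022. Acat2 in 2-day females, -0.0011, turned to 0.00044 with the deposited values, 0.0048 and 0.0038 with slide as a fixed term and a random block, and 0.021 without slide 6. Sqle turned with array weights at 2 weeks (-0.043) and in adults (-0.10), and in adults without normexp (-4.9e-05) and with the deposited values (-0.001). Array weights called 4 genes at 2 days, and 1 fit of all arrays 1 gene between adult sexes. PDTC groups in place of untreated ones, chosen after seeing the data, gave joint changes of -0.35 from 2 days to 2 weeks and -0.67 to adulthood, with Fdps at 0.045, and Cyp51 at 0.018 from 2 weeks to adulthood. Leaving out 1 rat spanned -0.0039 to 0.25 for Cyp51 in 2-day males, -0.024 to 0.027 for Acat2 in 2-day females and -0.037 to 0.073 for Sqle at 2 weeks. In adults it spanned -0.05 to 0.066 for Acat2, -0.061 to 0.064 for Fdps, -0.12 to 0.062 for Sqle and -0.15 to 0.014 for Msmo1. The cause of these turns was not tested. Of all probes at 2 days, 0 were called, but 258 without untreated male 4, 36 without PDTC male 4, 1 without untreated female 3, 373 with array weights and 1 in 1 fit of all arrays. A single fit of all arrays called 52 probes for PDTC in adults in place of 0 (255 in males, 138 in females, 377 for the sex difference). The 157 probes called between adult sexes became 42 with arrays scaled to 1 median, 980 in 1 fit of all arrays and 237 with array weights, and 89 without untreated adult female 1. From 2 days to 2 weeks 5059 probes became 2722 with arrays scaled to 1 median, and from 2 weeks to adulthood 8393 became 715 with slide as a fixed term. Slide as a fixed term could not be fitted for 2 days against adults. No paired analysis was possible because the labels give no replicate numbers. The slide, which the labels do give, served as a term and for within-slide differences. Low signal limits Cyp51, near background on most arrays.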
